A study of Rattus norvegicus with 9 samples.

Results

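The 10 genes described here mark hepatic stellate cells and the myofibroblasts that form from them: Acta2, Tagln, Myl9 and Cnn1 of the contractile apparatus, the intermediate filament gene Des, the growth factor receptor genes Pdgfra and Pdgfrb, the vitamin A-storing cell genes Lrat and Reln, and the pericyte gene Rgs5. They were taken by gene symbol and are 10 of the 32883 genes in the liver RNA-seq table of 9 male Sprague-Dawley rats, with 1 library per rat. There were 3 groups of 3 rats. The normal control rats were fed a normal diet. The DEN model rats were injected intraperitoneally every week with 0.01% diethylnitrosamine (DEN), a liver carcinogen, in an experiment planned for 16 weeks. The PZH administration rats received the same DEN injections and were also given Pien-Tze-Huang (PZH), a traditional Chinese formula. The week of collection and the PZH dose of the sequenced rats are not given in the sources used here. The deposited tag for treatment gives PZH for both the M and the G rats. Here the first letter of a rat's name, read with the study's Methods, decided its group, which makes the M rats the DEN model. DEN makes fibrosis, cirrhosis and tumors in succession, so that 1 piece of liver can hold scar, tumor and remaining parenchyma.

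In a healthy liver, stellate cells lie between the hepatocytes and the sinusoidal endothelium and store vitamin A as retinyl esters, which the enzyme encoded by Lrat makes. During injury they lose these stores, take on a contractile state with smooth muscle actin (Acta2) and its partners, answer to platelet-derived growth factor and lay down scar matrix. Portal fibroblasts, pericytes, vascular smooth muscle and mesothelial cells share part of this programme. None of the 10 genes belongs to stellate cells alone, and whole-liver RNA cannot tell fewer cells of a type from less RNA per cell.

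Contractile genes are known targets of serum response factor, whose binding sequence, the CArG box, is CC, then 6 bases that are each A or T, then GG. RefSeq promoter windows on GRCr8 were at hand for 7 of the 10 genes, those other than Tagln, Myl9 and Pdgfrb, and the 250 bases upstream of each annotated start were searched. The motif reads as itself on the opposite strand, so 1 search covered both. An exact box was in 0 of these 7 windows, and in 501 of the windows of all 33469 promoters (1.5%). Allowing 1 G or C among the 6 inner bases, a search added after the values were known, found 2 boxes in the window of Acta2, 1 in that of Lrat and 0 in those of Cnn1, Des, Pdgfra, Reln and Rgs5. Of all promoters, 8.08% held at least 1 such box and 0.693% held at least 2. The windows of Acta2 and Lrat are shown because these 2 genes stand at opposite ends of the comparison below. Capitals mark the boxes with 1 G or C.
Acta2 (GRCr8 chr1:241172504-241172753, minus strand, boxes beginning 134 and 84 bases upstream): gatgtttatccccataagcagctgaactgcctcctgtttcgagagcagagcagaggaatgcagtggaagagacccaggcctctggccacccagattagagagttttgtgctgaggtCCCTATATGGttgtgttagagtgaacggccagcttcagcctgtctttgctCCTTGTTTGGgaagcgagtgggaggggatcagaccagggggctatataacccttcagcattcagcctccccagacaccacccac
Lrat (GRCr8 chr2:170571213-170571462, minus strand, box beginning 209 bases upstream): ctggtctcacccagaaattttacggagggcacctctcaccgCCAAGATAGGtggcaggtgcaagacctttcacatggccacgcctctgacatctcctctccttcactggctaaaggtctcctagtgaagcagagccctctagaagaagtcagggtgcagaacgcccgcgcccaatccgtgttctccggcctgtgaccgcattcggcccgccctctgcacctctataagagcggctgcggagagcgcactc
A match describes the letters only. Whether a factor was bound there was not measured.

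Total counts per rat ran from 14922973 to 27161496, PZH administration rat 27 being the deepest, and 3 counts corresponded to 0.125 to 0.252 CPM (counts scaled by TMM to a common library size), which covers counting error only. TMM factors were 0.731 to 0.799 in normal control, 1.21 to 1.58 in DEN model and 0.863 to 0.941 in PZH administration rats. Without these factors, the median over all genes was shifted by 0.87 (log2) in the DEN model against the normal control group and by -0.67 in the PZH administration against the DEN model group. All directions below are therefore relative to the TMM scale, and the values that depend on it are named. Summed hepatocyte genes (10 genes, Alb and Ttr among them) were at 175650 to 188996 CPM in normal control, 35607 to 86068 CPM in DEN model and 139377 to 189330 CPM in PZH administration rats. Summed cholangiocyte genes (8 genes, Krt19 and Epcam among them) were at 30.6 to 43.1, 281 to 817 and 102 to 134 CPM in the same order. Their part in the results below was not tested.

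In the DEN model group, 8 of the 10 genes rose over normal control, Lrat did not pass the test, and Cnn1 had too few counts to pass the filter before the test. The background is wide: 25.3% of the 14255 genes tested were called higher at an adjusted p under 0.05, and the median log2 fold change was 0.03 over all tested genes and 2.13 over the 9 tested markers. At the study's thresholds, read here as more than 2 on the log2 scale in either direction with P under 0.001 before adjustment, 4 of the 9 rose (Acta2, Des, Pdgfrb and Rgs5) beside 8.81% of all tested genes. Every DEN model rat lay above every normal control rat in 8 of the 9 markers, as in 31.4% of all tested genes. Without TMM factors the share of all genes called higher was 57.0% and all 9 tested markers were called higher.

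In the PZH administration group, 5 of the 9 tested markers were lower than in the DEN model group (Acta2, Tagln, Pdgfrb, Reln and Rgs5) and 0 were higher, whereas 10.3% of 14272 tested genes were called lower. The median log2 fold change was 0.01 over all tested genes and -1.3 over the markers. One marker, Acta2, passed the study's thresholds, beside 1.35% of all genes. The groups did not overlap in 6 of the 9, the 5 above and Des, as in 22.5% of all tested genes. Without DEN model rat 13 or without PZH administration rat 28, Acta2 and Reln no longer passed and 3 markers remained called. Without TMM factors 8 were called lower, beside 39.9% of all tested genes.

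Against the normal control group, 2 of the 9 markers were higher in the PZH administration group (Pdgfra and Pdgfrb), where 4.07% of 13348 tested genes were called higher. The 3 markers whose PZH administration rats all lay above all normal control rats were Pdgfra, Pdgfrb and Rgs5, beside 13.6% of all tested genes. Both calls were lost, leaving 0, when normal control rat 1, 3 or 12 or PZH administration rat 28 or 42 was left out. The 3 comparisons share rats, so a gene high in the DEN model group enters the first 2 with opposite signs.

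**Figure D1:**
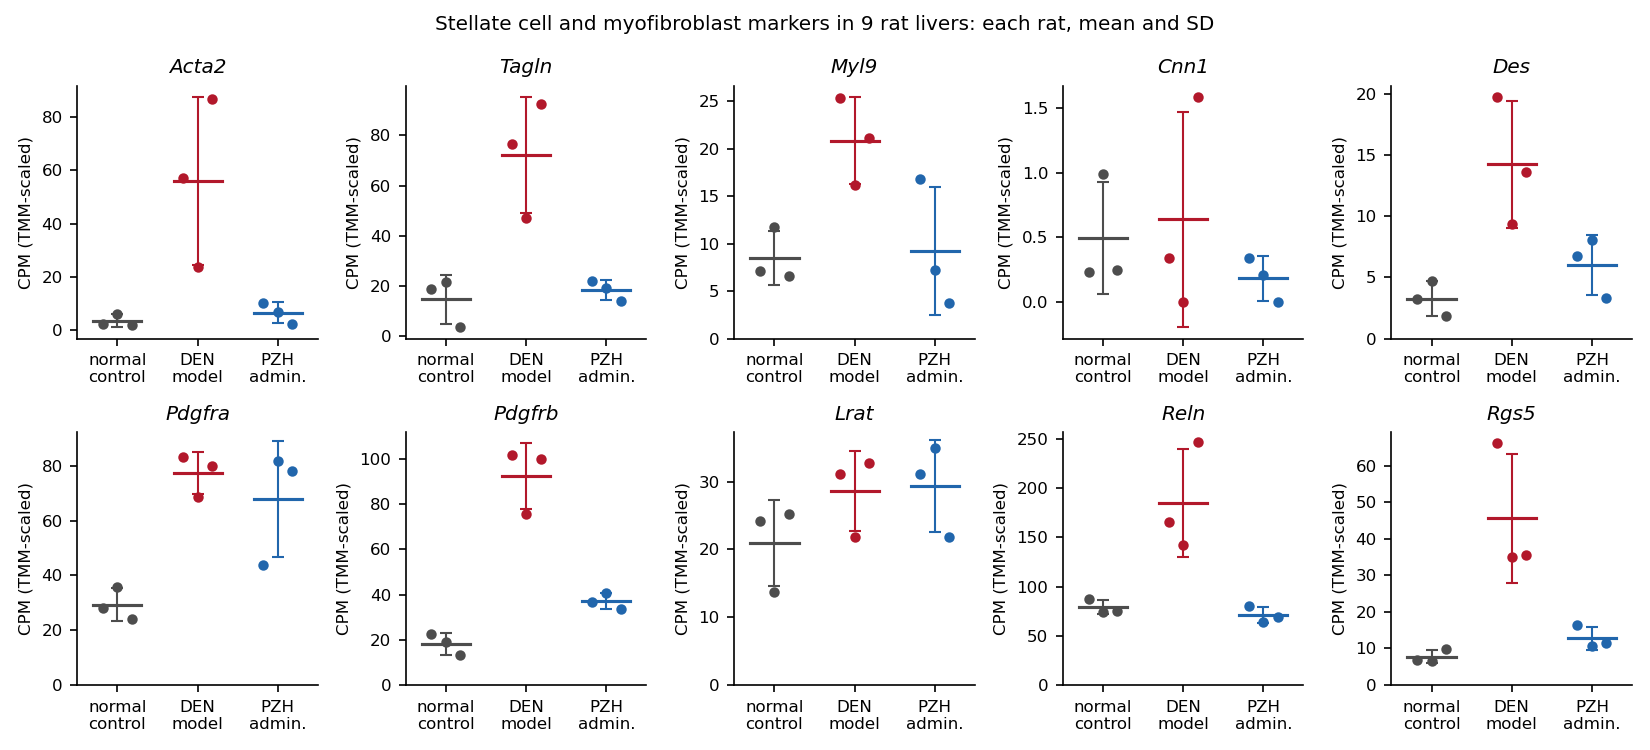
Level of each of the 10 markers in every rat (dots), in CPM on a linear axis scaled for each gene, with the group mean (horizontal line) and SD (bar) of 3 rats. The DEN model rats stand above both other groups for Acta2, Tagln, Des, Pdgfrb, Reln and Rgs5, the 3 groups overlap for Lrat, and Pdgfra is about as high in the PZH administration group as in the DEN model group.

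Acta2 (ENSRNOG00000058039, chromosome 1, 252537615 to 252550394 in the authors' file, genome build not given in the sources used here) encodes smooth muscle alpha-actin, the usual sign of an activated stellate cell. Values in each group are listed in the order of normal control rats 1, 12 and 3, DEN model rats 13, 17 and 24, and PZH administration rats 27, 28 and 42. Its level was 2.58, 6.33 and 2.01 CPM in the normal control rats, 57.0, 23.7 and 86.5 CPM in the DEN model rats, and 10.4, 6.96 and 2.56 CPM in the PZH administration rats. All 3 DEN model rats lay above the 6 other rats, and the normal control and PZH administration rats overlapped. Acta2 rose in the DEN model group by a log2 fold change of 3.94 ± 0.57 (SE, edgeR adjusted p = 0.0011), the largest fitted change of the 9 markers there. That value ran from 3.49 without DEN model rat 24 to 4.61 without normal control rat 12, and was called each time. Acta2 was lower in the PZH administration than in the DEN model group, by a log2 fold change of -3.02 ± 0.59 (edgeR adjusted p = 0.016). Without rat 28 or rat 13 that change was -3.03 or -3.01, with edgeR adjusted p = 0.053 and 0.059. Between PZH administration and normal control the fitted value was 0.88, with a 95% interval from -0.39 to 2.16. Muscle actin genes encode near-identical proteins, and whether reads of Acta2 were shared with Actg2, Acta1 or Actc1 was not tested. Mean levels of Actg2 were 0.493, 2.60 and 0.435 CPM in the 3 groups in the same order, those of Acta1 were 0, 1.80 and 0.301 CPM, and Actc1 had 0 counts in every rat.

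Tagln (ENSRNOG00000017628, chromosome 8, 50222896 to 50231357) encodes transgelin, an actin-binding protein of smooth muscle. It stood at 18.8, 21.6 and 3.44 CPM in the normal control, 76.6, 47.1 and 92.6 CPM in the DEN model and 21.8, 19.1 and 14.0 CPM in the PZH administration rats. Normal control rat 3 was far below its 2 group mates, and the DEN model rats again stood above all others. Tagln rose in the DEN model group (log2 fold change 2.32 ± 0.56, edgeR adjusted p = 0.0098) and was lower under PZH administration (-1.95 ± 0.29, edgeR adjusted p = 0.0098).

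Myl9 (ENSRNOG00000020246, chromosome 3, 152857592 to 152863960), the regulatory light chain of smooth muscle and non-muscle myosin, was at 7.11, 11.7 and 6.63 CPM in normal control, 25.3, 16.1 and 21.1 CPM in DEN model and 16.8, 7.17 and 3.70 CPM in PZH administration rats. The PZH administration rats were spread widest, rat 27 lying above DEN model rat 17. Myl9 rose in the DEN model group (log2 fold change 1.31 ± 0.28, edgeR adjusted p = 0.0062). Its value of -1.13 ± 0.49 between PZH administration and DEN model did not pass (edgeR adjusted p = 0.14, 95% interval -2.25 to -0.01), and it was -1.91 without rat 27 (edgeR adjusted p = 0.028).

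Cnn1 (ENSRNOG00000027736, chromosome 8, 23113048 to 23121761) encodes calponin, a marker of differentiated smooth muscle. It had 3, 13 and 3 counts in the normal control rats, 8, 0 and 38 in the DEN model rats and 8, 3 and 0 in the PZH administration rats. The groups overlapped, and a difference was not detectable at this depth: tested without the filter on low counts, its log2 fold change between DEN model and normal control was 0.41 ± 1.18 (edgeR adjusted p = 0.81). DEN model rat 17, at 0 counts for Cnn1, had 479 counts for Acta2 and 951 for Tagln.

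The wider contractile programme, 23 other smooth muscle and actin-binding genes in the file of which 21 were tested, moved in part. Of the 21, 11 rose (52.4%) and 0 fell in the DEN model, beside 25.3% and 20.5% of all tested genes, with a median log2 fold change of 1.19 beside 0.03 over all genes. Itga8, an integrin chain of stellate and smooth muscle cells, went from a mean of 1.36 to 93.4 CPM (log2 fold change 6.08 ± 0.61, edgeR adjusted p = 0.00025). Fhl2, a cofactor of serum response factor signalling, went from 1.02 to 16.9 CPM (4.05 ± 0.35, edgeR adjusted p = 0.00014). Tpm2, a tropomyosin, and Mustn1, a small nuclear protein of muscle and skeleton, rose by 2.57 and 2.52 on the log2 scale. Cald1 and Mylk, for caldesmon and myosin light chain kinase, did not pass, at -0.23 and 0.47, and Cald1 was at 0.64 without TMM factors (edgeR adjusted p = 0.026). Of the regulators, Srf was at 28.8 and 23.7 CPM (-0.27 ± 0.22, edgeR adjusted p = 0.36), Mkl1 rose by 0.73, and Myocd had too few counts to test. An exact CArG box was in 3 of the 21 promoter windows at hand for 19 genes of the list (14.3%, beside 1.5% of all promoters). These windows belong to Fhl2 and Srf only: 1 box in each of the 2 windows of Fhl2 and 2 in that of Srf, which did not pass the test. It was in 0 of those of Itga8, Tpm2, Mustn1, Tpm1 and Actn1. Between PZH administration and DEN model, 0 were higher and 4 lower (Fhl2, Itga8, Actn1 and Tpm1, chosen here as those that passed), which is 19.0% beside 10.3% of all tested genes. Without TMM factors 18 of the 21 (85.7%, beside 57.0% of all genes) were higher in the first comparison and 16 (76.2%, beside 39.9%) lower in the second. Without PZH administration rat 27, 8 of 22 (36.4%, beside 7.99%) were lower in the second, and without DEN model rat 17, 6 of 21 (28.6%, beside 11.7%).

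**Figure D2:**
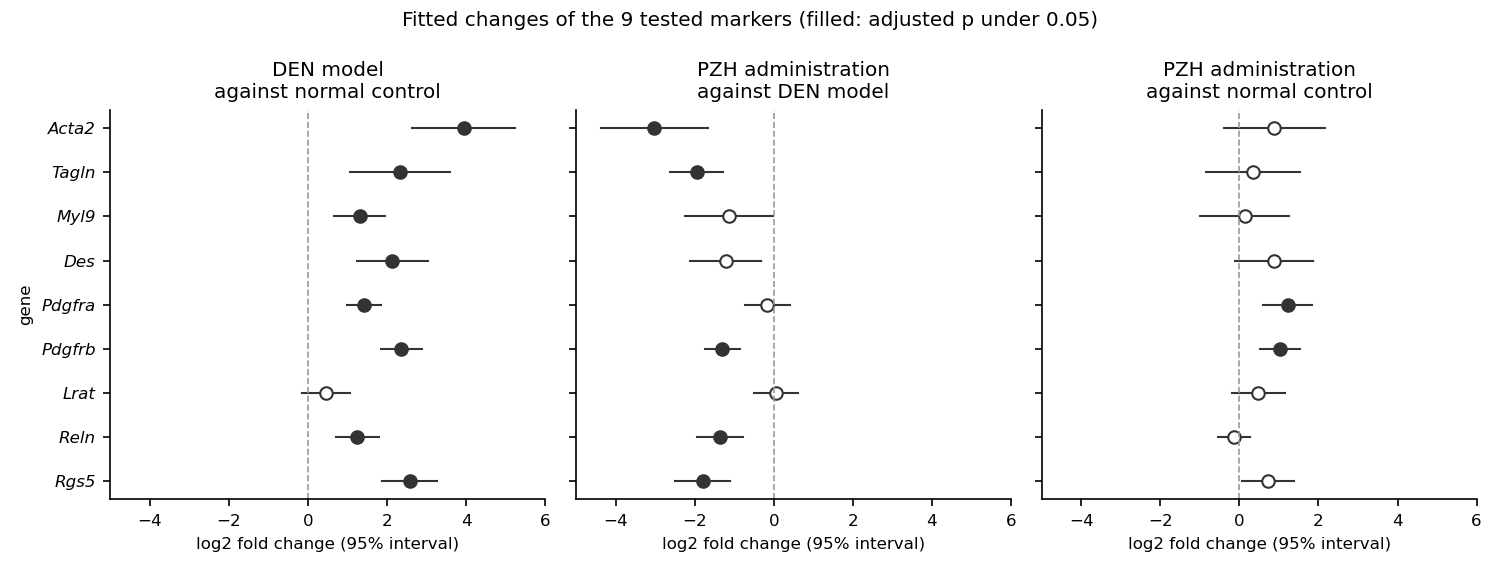
Fitted log2 fold change (dot) with its 95% interval (line) for the 9 tested markers in the 3 comparisons of 3 against 3 rats, filled where the edgeR adjusted p is under 0.05. In the left panel all markers but Lrat are filled and to the right of 0, in the middle panel Pdgfra and Lrat lie near 0 while Acta2 is at -3.02, and in the right panel Pdgfra and Pdgfrb are filled.

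Des (ENSRNOG00000019810, chromosome 9, 82556573 to 82564294) encodes desmin, an intermediate filament of muscle and, in rodents, a classical stellate cell marker. Its level was 3.2, 4.73 and 1.85 CPM in normal control, 19.7, 9.36 and 13.6 CPM in DEN model and 6.70, 8.0 and 3.28 CPM in PZH administration rats. The 3 DEN model rats lay above the others, by the narrowest margin in rat 17. Des rose in the DEN model group (log2 fold change 2.13 ± 0.39, edgeR adjusted p = 0.0031). The value of -1.21 ± 0.39 between PZH administration and DEN model missed the threshold with edgeR's quasi-likelihood test (adjusted p = 0.061). It passed with DESeq2 (adjusted p = 0.018) and edgeR's exact test (adjusted p = 0.021). The shares of all genes that DESeq2 and the exact test called lower are not given here.

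Of the 2 platelet-derived growth factor receptors, Pdgfrb (ENSRNOG00000018461, chromosome 18, 56364620 to 56406381) is the one through which PDGF-B drives stellate cell growth and migration. It was at 22.6, 18.9 and 13.2 CPM in normal control, 102, 75.4 and 99.8 CPM in DEN model and 36.7, 40.6 and 33.5 CPM in PZH administration rats. The 3 groups did not overlap, with PZH administration in between. Pdgfrb rose in the DEN model group by 2.36 ± 0.23 on the log2 scale (edgeR adjusted p = 0.00022), was lower under PZH administration by -1.3 ± 0.19 (edgeR adjusted p = 0.0093), and was still above normal control by 1.03 ± 0.22 (edgeR adjusted p = 0.033). Its fall in the PZH administration group passed the threshold with each rat left out in turn, at -1.44 to -1.21, as did that of Tagln and of Rgs5.

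Pdgfra (ENSRNOG00000002244, chromosome 14, 35527927 to 35581031), the receptor for PDGF-A and PDGF-C found on many fibroblasts, was at 28.1, 35.8 and 24.0 CPM in normal control, 83.3, 68.7 and 79.8 CPM in DEN model and 43.7, 81.9 and 78.0 CPM in PZH administration rats. Rats 28 and 42 of the PZH administration group were within the DEN model range and rat 27 was between the DEN model and normal control rats. Pdgfra rose in the DEN model group (log2 fold change 1.41 ± 0.19, edgeR adjusted p = 0.00082). Between PZH administration and DEN model it was at -0.17 ± 0.25 with a 95% interval from -0.74 to 0.40 (edgeR adjusted p = 0.67), at 0.07 without rat 27, and at -0.83 without TMM factors (edgeR adjusted p = 0.049). It was above normal control in the PZH administration group by 1.22 ± 0.27 (edgeR adjusted p = 0.038).

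All 4 PDGF ligand genes rose in the DEN model group, where 25.3% of all tested genes did. Pdgfb went from a mean of 1.92 to 7.71 CPM (log2 fold change 2.02 ± 0.35, edgeR adjusted p = 0.0022) and was at 2.15 CPM in the PZH administration group, a change of -1.82 ± 0.36 from the DEN model group (edgeR adjusted p = 0.016). Pdgfd, whose product also binds the beta receptor, went from 1.22 to 26.1 CPM (4.42 ± 0.46, edgeR adjusted p = 0.00027) and was at 10.5 CPM under PZH administration, still above normal control by 3.09 ± 0.60 (edgeR adjusted p = 0.021). Pdgfc and Pdgfa rose by 2.29 and 1.3 on the log2 scale, and their values of -0.66 and -0.76 between PZH administration and DEN model did not pass (edgeR adjusted p = 0.18 and 0.084). Of the 4 ligands, Pdgfb alone was called lower there, beside 10.3% of all tested genes. Without DEN model rat 17, 2 were, beside 11.7%, and without TMM factors all 4 were, beside 39.9%.

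Lrat (ENSRNOG00000025608, chromosome 2, 181896305 to 181905300) encodes lecithin retinol acyltransferase, which makes the retinyl esters of the stellate cell's fat droplets. It was at 24.1, 13.7 and 25.2 CPM in normal control, 31.1, 21.8 and 32.8 CPM in DEN model and 31.2, 35.0 and 21.8 CPM in PZH administration rats. The 3 groups overlapped, and normal control rat 12, the lowest for Lrat, was the highest of its group for Acta2, Tagln, Myl9, Cnn1, Des and Pdgfra. The log2 fold change of Lrat was 0.46 ± 0.27 between DEN model and normal control (95% interval -0.14 to 1.07, edgeR adjusted p = 0.18) and 0.06 ± 0.24 between PZH administration and DEN model (-0.49 to 0.62, edgeR adjusted p = 0.88). This call depends on scaling. Without TMM factors Lrat was higher in the DEN model group by 1.36 (edgeR adjusted p = 0.0038) and with limma on log2(FPKM + 1) by 1.09 (adjusted p = 0.013), while all genes together shifted by 0.87. Neither scale shows a fall of Lrat in the DEN model group.

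Reln (ENSRNOG00000021441, chromosome 4, 9347528 to 9773670) encodes reelin, a secreted protein that in the liver marks stellate cells. Its level was 87.3, 74.5 and 75.2 CPM in normal control, 165, 142 and 247 CPM in DEN model and 80.3, 64.4 and 68.7 CPM in PZH administration rats. The DEN model rats stood apart from 2 overlapping groups. Reln rose in the DEN model group by 1.24 ± 0.24 on the log2 scale (edgeR adjusted p = 0.0038) and was lower under PZH administration by -1.35 ± 0.25 (edgeR adjusted p = 0.014). Without rat 28 or rat 13 the latter was -1.27 or -1.43, with edgeR adjusted p = 0.054 and 0.055. The 2 genes grouped as vitamin A-storing thus differed in their calls, although a difference between their changes was tested only by the ratio below.

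A pair of receptors and an adaptor take up the reelin signal. The receptor genes Vldlr and Lrp8 rose in the DEN model group, from a mean of 0.990 to 30.1 CPM (log2 fold change 4.92 ± 0.40, edgeR adjusted p = 0.00012) and from 0.695 to 10.6 CPM (3.91 ± 0.68, edgeR adjusted p = 0.0024). Both were lower under PZH administration, at -1.65 and -1.86 (edgeR adjusted p = 0.023 and 0.030). That is 2 of the 3 genes, beside 10.3% of all tested genes. Without PZH administration rat 27, 1 of the 3 was called lower, beside 7.99%. The adaptor Dab1 fell in the DEN model group, from 27.6 to 3.45 CPM (-2.97 ± 0.34, edgeR adjusted p = 0.00041), and was below normal control under PZH administration, at 5.0 CPM (-2.45 ± 0.27, edgeR adjusted p = 0.0036).

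Of 17 tested genes of retinoid storage and signalling, 5 were higher (29.4%) and 7 lower (41.2%) in the DEN model than in the normal control group, beside 25.3% and 20.5% of all tested genes. Without TMM factors 6 were higher and 5 lower (35.3% and 29.4%, beside 57.0% and 6.72%). Aldh1a2, a retinoic acid-making enzyme, rose from 0.525 to 13.6 CPM (log2 fold change 4.68 ± 0.58, edgeR adjusted p = 0.00056), as did the retinoic acid-degrading enzymes Cyp26b1 (2.60) and Cyp26a1 (2.44). Aldh1a1, another retinaldehyde dehydrogenase, rose from 167 to 578 CPM and was at 609 CPM under PZH administration. Rbp4, the hepatocyte's retinol carrier, fell from a mean of 3841 to 649.6 CPM (-2.55 ± 0.42, edgeR adjusted p = 0.0019), and the receptor Rxra fell by 1.94 on the log2 scale. Between PZH administration and DEN model 4 of the 17 were higher (23.5%, beside 8.72% of all tested genes), Rbp4 among them at 2.13 ± 0.46 (edgeR adjusted p = 0.020), and 1 was lower (5.88%, beside 10.3%), Aldh1a2 at -1.88 ± 0.39 (edgeR adjusted p = 0.018). These counts were 2 and 4 without TMM factors (11.8% and 23.5%, beside 3.90% and 39.9%). Without DEN model rat 17 they were 8 and 1 (47.1% and 5.88%, beside 10.9% and 11.7%). Rbp4 is made by hepatocytes, and the summed hepatocyte genes given above moved the same way. Any link between these changes was not tested.

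Of 19 other stellate cell markers tested, 4 rose (21.1%) and 9 fell (47.4%) in the DEN model group, beside 25.3% and 20.5% of all tested genes. Without TMM factors 8 rose (42.1%, beside 57.0%) and 5 fell (26.3%, beside 6.72%). Dcn, the matrix proteoglycan decorin, rose from 12.4 to 118 CPM (log2 fold change 3.28 ± 0.34, edgeR adjusted p = 0.00029), and Cygb, the globin of stellate cells, rose from 8.56 to 77.6 CPM (3.19 ± 0.31, edgeR adjusted p = 0.00022). Angptl6 fell from 24.8 to 2.35 CPM (-3.37 ± 0.39, edgeR adjusted p = 0.00041), Gfap, an intermediate filament of astrocytes and quiescent stellate cells, fell from 3.33 to 0.42 CPM (-2.95 ± 0.63, edgeR adjusted p = 0.0058), and Ecm1 fell from 192 to 47.8 CPM. Between PZH administration and DEN model 19 genes of the list were tested too, with Ngfr in place of Gfap, which was not tested there. Of these 19, 3 were higher under PZH administration (Angptl6, Ecm1 and Hhip) and 1 was lower (Cygb). That is 15.8% and 5.26%, beside 8.72% and 10.3% of all tested genes. The counts were 1 and 5 without TMM factors (5.26% and 26.3%, beside 3.90% and 39.9%). Without PZH administration rat 27 they were 2 and 2 (10.5% each, beside 6.96% and 7.99%). Without DEN model rat 17 they were 1 and 1 of 20 tested (5% each, beside 10.9% and 11.7%).

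Rgs5 (ENSRNOG00000002730, chromosome 13, 87966758 to 88003035) encodes a regulator of G protein signalling that marks pericytes and is also found in activated stellate cells. It was at 6.79, 6.64 and 9.82 CPM in normal control, 66.0, 35.0 and 35.6 CPM in DEN model and 16.3, 10.6 and 11.4 CPM in PZH administration rats. The 3 groups did not overlap. Rgs5 rose in the DEN model group by 2.57 ± 0.31 on the log2 scale (edgeR adjusted p = 0.00048) and was lower under PZH administration by -1.80 ± 0.31 (edgeR adjusted p = 0.013). Its value of 0.72 ± 0.29 between PZH administration and normal control did not pass (edgeR adjusted p = 0.21). Of 9 tested genes of the pericyte and mural cell list, 8 rose in the DEN model group (median 2.65, beside 0.03 over all genes) and 8 fell under PZH administration (median -1.68, beside 0.01), the exception both times being Steap4. That is 88.9%, beside 25.3% of all genes called higher in the first comparison and 10.3% called lower in the second. Leaving out a rat let 13 of the list's genes be tested. Without DEN model rat 17, 10 rose (76.9%, beside 24.9% of all genes) and 9 fell (69.2%, beside 11.7%). Without PZH administration rat 27, 7 fell (53.8%, beside 7.99%). Without TMM factors 9 of 9 rose, beside 57.0% of all genes, and 8 fell, beside 39.9%. Rgs4 went from 0.440 to 28.3 and then 5.75 CPM, Cspg4 from 0.314 to 3.89 and 0.940 CPM, Angpt1 from 1.67 to 11.2 and 3.45 CPM, and Notch3 from 3.3 to 21.9 and 5.16 CPM over the 3 groups in that order. Abcc9, a potassium channel subunit of pericytes, rose by 1.09 in the DEN model group and fell by 1.07 under PZH administration.

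**Figure D3:**
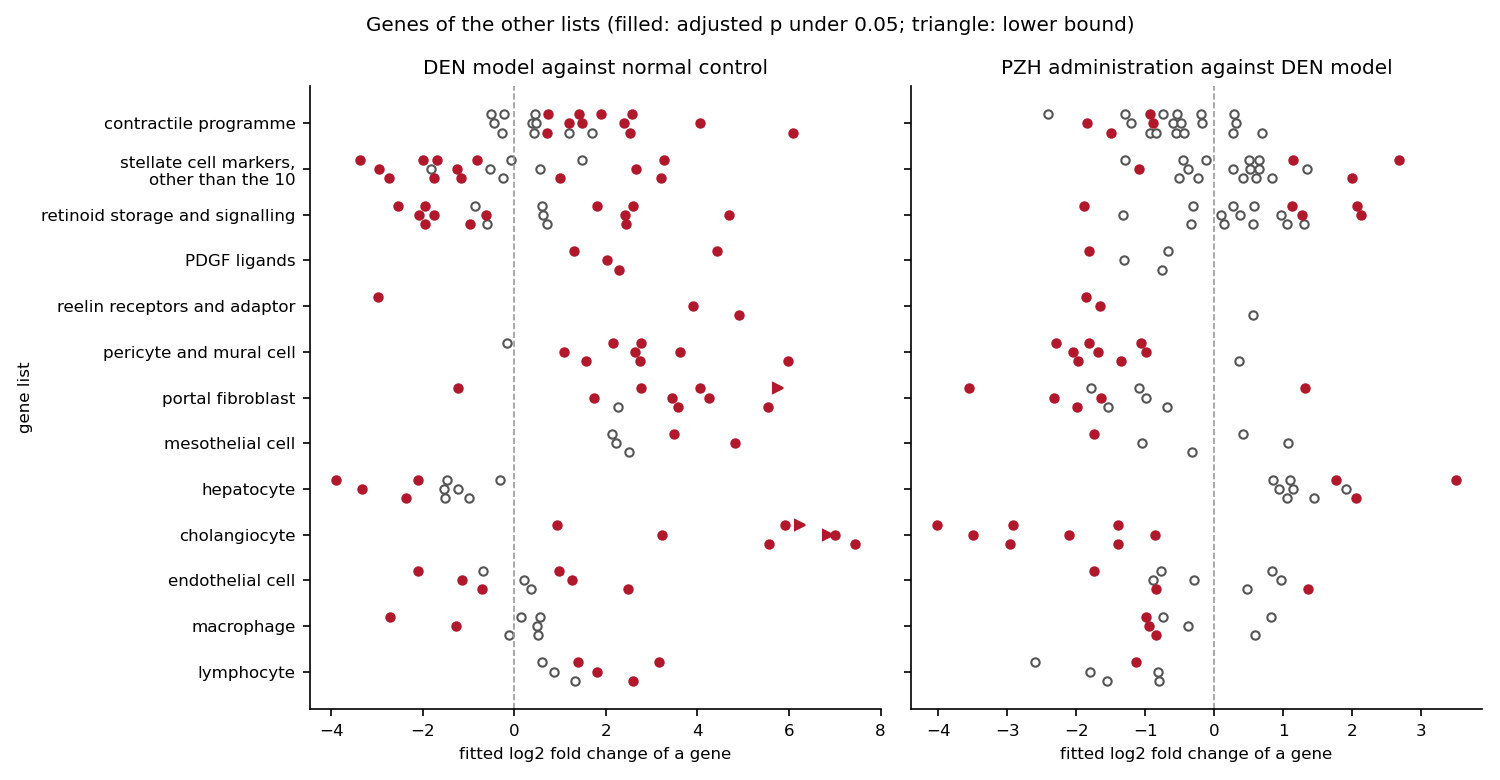
Fitted log2 fold change of each tested gene (dot) of 13 other gene lists, one list per line, for DEN model against normal control (left) and PZH administration against DEN model (right); filled dots have an edgeR adjusted p under 0.05, and triangles are lower bounds for genes at or under 3 counts in every normal control rat. Of the pericyte and mural cell genes 8 of 9 are filled on the right of 0 in the left panel and on the left of 0 in the right panel, whereas the stellate cell and retinoid lists lie on both sides.

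Genes of other cells that share these markers were read in the same way. Their counts stand beside the shares of all tested genes given above. For the DEN model these were 25.3% up and 20.5% down (57.0% and 6.72% without TMM factors). For PZH administration against DEN model they were 8.72% up and 10.3% down (3.90% and 39.9%). Without DEN model rat 17 the shares were 24.9% and 19.9% in the first comparison, and 10.9% and 11.7% in the second. Of 10 tested portal fibroblast genes, 8 rose and 1 fell in the DEN model group, and 1 rose and 4 fell under PZH administration (0 and 8 without TMM factors, 1 and 6 without DEN model rat 17). Col15a1 was at 0 to 0.229 CPM in normal control and 2.08 to 28.9 CPM in DEN model rats (SD 14.1, n = 3). Cd34, Thy1 and Fbln1 rose by 5.53, 4.25 and 4.06 on the log2 scale, Eln rose by 3.57, and Dpt fell from 343 to 145 CPM (not called without TMM factors, adjusted p = 0.19 in edgeR). Of 5 mesothelial genes 2 rose (5 without TMM factors), with Msln at 2.39, 68.7 and 20.1 CPM and Wt1 at 0.233, 2.67 and 1.3 CPM in the 3 groups. Of the skeletal and heart muscle genes, Myh6, Mb, Myl1, Actc1 and Ckm had 0 counts in every rat, and the summed list was at 0.252 to 1.17 CPM in normal control, 6.04 to 11.3 CPM in DEN model and 1.42 to 2.60 CPM in PZH administration rats. The 2 tested genes of that list, Tnnt2 and Acta1, had 0 counts in the normal control rats and means of 4.79 and 1.80 CPM in the DEN model rats. Among endothelial genes 3 of 9 rose and 3 fell (Vwf and Plvap rose by 2.48 and 1.26, Clec4g and Kdr were at -2.10 and -1.15), among macrophage genes 0 of 7 rose and 2 fell (Marco and Clec4f), and among lymphocyte genes 4 of 7 rose and 0 fell. The 4 were Cd3e, Cd3g, Cd8a and Cd4, at 3.17, 2.60, 1.82 and 1.40 on the log2 scale. All 8 cholangiocyte genes rose, Krt19 from 1.46 to 251 CPM, Cftr from 0.290 to 37.8, Krt7 from 0.076 to 27.5 and Cldn4 from 0.052 to 18.0 CPM, and 4 of 10 hepatocyte genes fell, Ttr by 3.89, Tat by 3.33, Ambp by 2.37 and Alb by 2.09 on the log2 scale. Under PZH administration all 8 cholangiocyte genes fell, as did 3 of 7 macrophage, 2 of 9 endothelial, 1 of 6 lymphocyte (Cd4) and 1 of 5 mesothelial genes. In the same comparison 3 of 10 hepatocyte genes and 1 endothelial gene (Clec4g) rose. Without TMM factors, 5 endothelial, 4 macrophage and 7 lymphocyte genes rose in the DEN model group and 1 endothelial and 1 macrophage gene fell. Under PZH administration, still without TMM factors, 5 of 9 endothelial, 4 of 7 macrophage, 5 of 6 lymphocyte and 2 of 5 mesothelial genes fell, and 0 of these rose. Without DEN model rat 17, 9 of the 10 hepatocyte genes fell in the DEN model group and 9 rose under PZH administration. Leaving out PZH administration rat 27, 6 of 8 cholangiocyte, 4 of 7 macrophage and 3 of 10 portal fibroblast genes fell under PZH administration. So did 1 of 9 endothelial, 1 of 8 lymphocyte and 0 of 5 mesothelial genes. In these lists 0 rose, and 2 of 10 hepatocyte genes rose. The shares of all genes there were 6.96% up and 7.99% down. How much of the change in each marker comes from these cells was not tested.

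The order of the rats within a group was shared by many markers. DEN model rat 17 had the lowest level of its group for all 10 markers. That rat also had the highest summed hepatocyte genes of the group (86068 CPM beside 50138 and 35607 CPM in rats 13 and 24) and the lowest summed cholangiocyte genes (281 beside 684 and 817 CPM), and the part of these in its marker levels was not tested. Without rat 17, 8 markers rose in the DEN model group, as with it. Normal control rat 3 was lowest in 6 markers and rat 12 highest in 6. PZH administration rat 42 was lowest in 7 markers and rat 27 highest in 6. The spread within the DEN model group, as SD over mean of CPM, was widest for Acta2 (56.3%) among the tested markers and narrowest for Pdgfra (9.87%).

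Levels of different genes can be compared per transcript length, as FPKM (fragments per kilobase of transcript, scaled by the authors to the library's total without TMM factors). In the normal control rats Tagln (7.24 ± 4.96 FPKM, SD, n = 3) stood highest, followed by Myl9, Reln, Rgs5, Pdgfra, Lrat, Acta2 (2.06 ± 1.38), Pdgfrb, Des and Cnn1 (0.258 ± 0.234), and only Des and Cnn1 were neighbours in this order whose rats did not overlap. In the DEN model rats Tagln (66.1 ± 28.1) and Acta2 (59.8 ± 38.6) led, Acta2 having gone from rank 7 to rank 2. Lrat had gone from rank 6 (2.88 ± 0.81) to rank 9 (7.38 ± 2.36), so its rank fell while its mean FPKM rose. Only Lrat and Cnn1 (0.666 ± 0.878) were neighbours there whose rats did not overlap. In the PZH administration rats Tagln (10.4 ± 1.86) was first, Pdgfra (9.58 ± 3.29) second and Acta2 (4.28 ± 2.38) again at rank 7. Neighbours in the order overlapped there but for Pdgfrb above Des and Des above Cnn1.

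Ratios of 2 markers within a rat do not depend on how libraries are scaled. The ratio of Acta2 to Lrat FPKM, contractile to vitamin A-storing, was 0.323 to 1.87 in normal control, 4.38 to 10.6 in DEN model and 0.475 to 1.35 in PZH administration rats. The DEN model rats thus had more Acta2 per Lrat than any other rat, by 11-fold over normal control and 8.76-fold over PZH administration in geometric means. With 3 rats against 3 the exact two-sided permutation test cannot go below p = 0.1, which is what both comparisons gave (0.2 after Benjamini-Hochberg adjustment over the 18 ratio tests run). Tagln to Lrat separated the same groups, at 0.480 to 5.55, 7.58 to 9.92 and 1.91 to 2.46 in the same order (exact permutation p = 0.1 for DEN model against each other group). Reln to Lrat was 1.47 to 2.68, 2.61 to 3.70 and 0.905 to 1.55, and the DEN model rats overlapped the normal control rats (exact permutation p = 0.2, adjusted 0.3) but not the PZH administration rats (p = 0.1). Myl9 to Lrat also overlapped between DEN model and normal control (3.27 to 4.14 beside 1.34 to 4.38). Pdgfra to Pdgfrb went the opposite way, at 1.55 to 2.36 in normal control, 0.994 to 1.13 in DEN model and 1.48 to 2.89 in PZH administration rats (exact permutation p = 0.1 for DEN model against each other group). Acta2 to Pdgfrb was 0.664 to 1.95, 1.83 to 5.04 and 0.445 to 1.65, separating DEN model from PZH administration rats only.

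**Figure D4:**
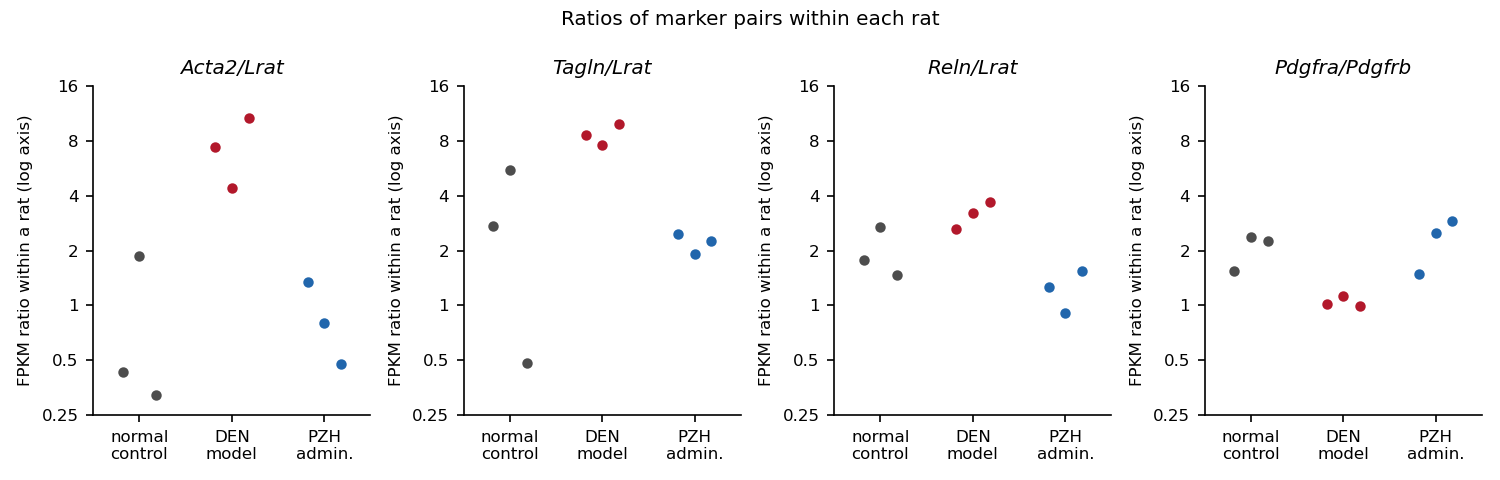
Ratio of the FPKM of 2 markers within each rat (dots), on a log2-spaced axis, by group. The DEN model rats lie above both other groups for Acta2 to Lrat (4.38 to 10.6) and Tagln to Lrat (7.58 to 9.92), overlap the normal control rats for Reln to Lrat, and lie below both other groups for Pdgfra to Pdgfrb (0.994 to 1.13).

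The genes whose log2(CPM + 1) followed Acta2 most closely over the 9 rats, among 13224 genes tested in every comparison, were LOC100364062 (Pearson's r = 0.995), Cmtm7 (0.992), Ada (0.989), Clip2 (0.988) and Flii (0.988). Those closest to Lrat were Setbp1 (0.958), Mitd1 (0.920), Zfp287 (0.906), Etv1 (0.879) and LOC108348302 (0.877). The 9 points fall into 3 groups and share their libraries and depths, so these values only describe likeness. No other marker was in either set of 5. Cnn1 was not among the genes searched.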

How the data were processed

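Liver mRNA of 9 rats was sequenced on an Illumina NovaSeq instrument. The submitters' processing notes name fastp, HISAT2 2.1.0, StringTie 1.3.3b and edgeR 3.30.3, and the genome build is not given in the sources used here. The authors deposited raw counts per gene and rat, without normalization. Beside them the authors deposited FPKM, scaled for transcript length and library total. The group means, log2 fold changes, P-values, Q-values and up or down calls in the same table are the authors' own comparisons and were not used. Whether reads were counted by strand is not given either.

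Each pair of groups was tested on the counts of its 6 rats in R 4.3.3 with edgeR 4.0.16 (filterByExpr, TMM factors, quasi-likelihood test, no covariates), and p-values were adjusted by Benjamini-Hochberg over all genes tested. A gene was called at an adjusted p under 0.05. CPM per rat used TMM factors over the 9 rats. Ratios of FPKM within a rat were compared by exact permutation tests (SciPy 1.17.1). Each rat is a separate animal, and libraries of a group differed by more than counting noise. The pipeline was tested on simulated counts.

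The 10 markers, the other gene lists and the tests were chosen with earlier results of these data known. All 10 markers are named. From each other list, up to 4 genes with the largest absolute log2 fold change among those called between DEN model and normal control were to be named, and up to 2 of the rest with the highest mean CPM, as were the 5 genes closest to Acta2 and to Lrat. Of the genes so picked, Mylpf, Tnnt3, Upk3b, Lrrn4, Tf, Serpina1, Lyve1, Cdh5, Csf1r, C1qa, Nkg7 and Cd79b enter the text only through the counts or sums of their lists. Genes outside this rule, such as Srf, Mkl1, Myocd, Actg2, Actn1, Tpm1 and Hhip, were named after their values were seen. The contractile list holds Mkl1 also under its newer symbol Mrtfa, counted once. Vipr1, Mfap4, Myh1, Myh2, Pecam1, Timd4 and Cd79a were not analysed here, and 2 genes that the naming rule picked are not reported here. Promoter sequences are RefSeq windows on GRCr8, whose coordinates were not combined with those of the authors' file.

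Alternatives were library totals, DESeq2 1.42.0, edgeR's exact test, 1 fit over the 3 groups, testing every gene with a count, requiring 10 counts in each rat, 2 other thresholds, limma 3.58.1 on log2(FPKM + 1) for genes with a mean FPKM of at least 0.1, and leaving out each rat. Counts of the other lists without TMM factors, without DEN model rat 17 and without PZH administration rat 27 were added after seeing the data.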

Additional observations from a re-analysis of the deposited data

How the results depend on the processing

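The count of markers called higher in the DEN model than in the normal control group was 8. It was 9 under library totals and limma on FPKM (Lrat added), and 4 at the study's thresholds. Every rat left out in turn left 8. Of all tested genes 25.3% were called higher, 57.0% under library totals and 8.81% at the study's thresholds. Without DEN model rat 17 that share was 24.9%. The count called lower under PZH administration than in the DEN model group was 5, with 8 under library totals and 1 at the study's thresholds. With 1 rat left out it was 3 to 6. Without DEN model rat 13 or PZH administration rat 28 it was 3, the same 3 genes (Tagln, Pdgfrb and Rgs5). Of all tested genes 10.3% were called lower, 39.9% under library totals and 1.35% at the study's thresholds. That share was 11.7% without DEN model rat 17 and 7.99% without PZH administration rat 27. The count higher under PZH administration than in normal control rats was 2, with 0 under limma on FPKM and at the study's thresholds. With 1 rat left out it was 0 to 2. Of all tested genes 4.07% were called higher there, and 5.77% without PZH administration rat 27. Shares of all genes for the remaining settings of the 3 comparisons are not given here. Of the single log2 fold changes, 5, all of them uncalled, changed sign in at least 1 alternative. Between PZH administration and DEN model, Pdgfra ran from -0.32 to 0.070 with 1 rat left out (the latter without rat 27). Lrat was at -0.64 under library totals and -0.52 under limma, and ran from -0.12 to 0.25 with 1 rat left out, below 0 without DEN model rat 17 or PZH administration rat 28. Between PZH administration and normal control, Tagln ran from -0.12 (without normal control rat 3) to 0.73, Myl9 from -0.64 (without rat 27) to 0.51, and Reln was at 0.077 under library totals and 0.068 under limma. No called marker changed direction in any alternative. Library totals and FPKM leave out the TMM factors, and beyond that the cause of these changes was not tested. With 3 rats a group, an adjusted p near 0.05 rests on single rats, and Cnn1, left out by the filter on low counts, was not called in any alternative that tested it. No paired analysis was possible because the groups share no replicate numbers.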
